A study of Homo sapiens with 10 samples.

Results

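Oxidative phosphorylation subunits are described here by histone H3 lysine 27 acetylation (H3K27ac) at the regions assigned to their genes in H1975 cells, a human lung adenocarcinoma line with mutant EGFR. Members were chosen by gene symbol alone (NDUFA, NDUFB, NDUFC, NDUFS and NDUFV followed by a digit, SDHA to SDHD, UQCR, CYC1, COX4 to COX8 and ATP5). Of the 67387 annotated regions 166 carried such a symbol, from 72 of 15633 genes. Of these regions, 108 lay within 1 kb of the start of the gene, the class called promoter here, and 58 lay elsewhere. Positions are on hg38, and each region is 502 bp wide, so levels can be set side by side between genes.

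H3K27ac was measured by chromatin immunoprecipitation and sequencing in 3 groups of 3 libraries, which the labels call biological triplicates, with 1 input library. DMSO cells spent 21 days without drug and then 3 days in DMSO. Drug-tolerant persister (DTP) cells were held in 500 nM osimertinib, an EGFR tyrosine kinase inhibitor, for 24 days. DTP + AZD5153 cells received 500 nM osimertinib for 21 days and then 150 nM AZD5153, an inhibitor of the BET proteins that read acetylated histones, for 3 days; whether osimertinib was kept on during those days is not stated. All groups are the same cell line, so no other genetic background is represented.

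Oxidative phosphorylation takes place in the inner mitochondrial membrane. Complexes I and II feed electrons to ubiquinone, complex III passes them to cytochrome c, complex IV reduces oxygen, and complex V uses the proton gradient to make ATP. Most subunits are encoded in the nucleus, from compact promoters at which NRF1, the ETS factor GABP and YY1 are known regulators, and the remainder are encoded by mitochondrial DNA, which the symbols used here do not cover. H3K27ac marks active promoters and enhancers.

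Counts per library ranged from 6263443 in DTP + AZD5153 replicate 3 to 10463351 in DMSO replicate 2, and 2 libraries stood apart. Promoter regions took 50.8% of all counts in DTP replicate 2 and 52.9% in DTP + AZD5153 replicate 3, against 29.3% to 34.8% in the other 7. The profile of DTP + AZD5153 replicate 3 also correlated with those of its own group at Spearman rho of only 0.367 and 0.445 across regions. The medians and the named fold changes that these libraries move most are also given without them. All 6 epithelial markers had a promoter region, from KRT18 at 9.04 counts per M reads of library size (CPM) in DMSO, the 29.0th percentile of 12295 gene promoters, to KRT8 at 63.0 CPM, the 99.8th percentile. Of 4 lung lineage genes 3 had a promoter region. Among the markers of other cell types, the endothelial and platelet gene PECAM1 had 8 annotated regions, none a promoter, of which 3 were lower in DTP + AZD5153 than in DMSO, whereas PTPRC, CD3E, ALB and HBB had no annotated region.

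Promoter sequences are shown for the members that hold a short word of a known regulator, which the choice of members did not use; 19 of 51 (37.3%) held any of the 3 words searched, against 21.1% of promoters over counted regions, so most held none. RefSeq promoters (GRCh38.p14, 300 bases from 250 before the start) overlapped the promoter region of 51 of the 70 member genes that had one. The word GCATGCGC, the core bound by NRF1, was present on either strand in 11 of these 51 (21.6%), against 6.46% of 6584 promoters over counted promoter regions and 3.05% of all 35116 promoter sequences. CCGGAAGT, an ETS word, was present in 6 (11.8%, against 10.4% of the 6584 and 4.14% of all), and AAGATGGC, a YY1 word, also in 6 (11.8%, against 6.15% and 2.89%). No word overlapped another kind of word, and a match describes letters, not binding. A promoter sequence needed only to overlap the counted region, so a word in it may lie outside that region. The windows with an NRF1 word lying wholly before the start are printed 5′ to 3′ on the strand of the gene, with the NRF1 and ETS words in capitals; a run of capitals longer than 8 holds the NRF1 word on both strands.
NDUFA5 (chr7:123557954-123557991, minus strand): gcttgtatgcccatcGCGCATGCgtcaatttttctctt
NDUFB4 (chr3:120596162-120596201, plus strand): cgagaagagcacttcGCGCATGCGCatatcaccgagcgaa
NDUFS6 (chr5:1801346-1801383, plus strand): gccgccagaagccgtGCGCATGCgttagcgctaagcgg
NDUFS7 (chr19:1383819-1383856, plus strand): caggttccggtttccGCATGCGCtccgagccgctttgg
SDHB (chr1:17054210-17054247, minus strand): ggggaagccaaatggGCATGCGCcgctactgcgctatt
SDHD (chr11:112086748-112086817, plus strand): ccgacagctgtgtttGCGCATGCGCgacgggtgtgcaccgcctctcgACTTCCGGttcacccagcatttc
COX5B (chr2:97645911-97646047, plus strand): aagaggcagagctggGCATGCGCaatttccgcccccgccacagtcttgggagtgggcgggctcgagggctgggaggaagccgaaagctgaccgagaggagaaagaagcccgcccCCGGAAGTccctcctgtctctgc
COX6A1 (chr12:120437880-120437961, plus strand): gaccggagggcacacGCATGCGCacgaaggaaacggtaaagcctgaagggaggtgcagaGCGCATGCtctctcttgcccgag
ATP5F1C (chr10:7788140-7788176, plus strand): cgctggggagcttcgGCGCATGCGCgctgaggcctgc
ATP5MC2 (chr12:53676101-53676138, minus strand): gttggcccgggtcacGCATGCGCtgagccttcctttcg
These 10 span every complex but III, and SDHD and COX5B hold an ETS word beside the NRF1 word. The windows of NDUFA5, NDUFB4, SDHB, SDHD and COX6A1 lie outside the counted promoter region of the gene. So do the NRF1 words of NDUFS7 and COX5B.

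Most subunit genes were acetylated at their promoter in all libraries; the cells were measured in bulk, so a change in all cells and in a share of them cannot be told apart. Of the 72 genes, 70 had a promoter region, all but the isoform genes UQCRHL and COX4I2. Not all are subunit genes. The symbols also take in the antisense genes NDUFB2-AS1 and NDUFV2-AS1, counted with complex I, and the inhibitory factor ATP5IF1, counted with complex V. At the strongest region of each gene the median was 18.4 CPM over the DMSO libraries, against 14.3 over all 12295 gene promoters, and 53 of the 70 lay above that overall median. A deposited peak call lay there in all 9 libraries for 65 of the 70. In DMSO the 70 genes ran from NDUFA9, at 3.47 CPM, to NDUFB2-AS1, at 41.9 CPM, whose region also holds the start of NDUFB2. The region listed as the promoter of NDUFA9 overlaps DYRK4 in RefSeq and not NDUFA9, and had a peak in 5 of the 9 libraries. ATP5F1B, the catalytic beta subunit of ATP synthase, was at 39.0 and NDUFA4, now assigned to complex IV, at 38.1. The set was thus well covered but not uniform: 9 promoters lay in the top 10% of all genes, and that of NDUFV2 at percentile 20.2. The region listed under NDUFB3, which overlaps HYCC2 and not NDUFB3 in RefSeq, was at percentile 12.2. The region in DYRK4 listed under NDUFA9 was at percentile 5.14. A start of another gene on the opposite strand lay within 500 bp of the region for 21 of the 70 (30.0%, against 24.1% of all gene promoters), so acetylation there cannot be assigned to a single gene.

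Across libraries, the member promoters moved with promoters in general. Their median was 17, 22.4 and 16.5 CPM in DMSO, 14.4, 39.1 and 12.6 in DTP, and 17.3, 17.1 and 29.2 in DTP + AZD5153. DTP replicate 2 was the highest of its group at 68 of the 70 promoters, and DTP + AZD5153 replicate 3 at 48. In DMSO, replicate 2 was the highest of its group at 62. The median over all gene promoters was likewise 32.7 CPM in DTP replicate 2, against 12.5 and 10.6 in the other DTP libraries, and 28.0 in DTP + AZD5153 replicate 3, against 13.6 and 14.3.

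**Figure D1:**
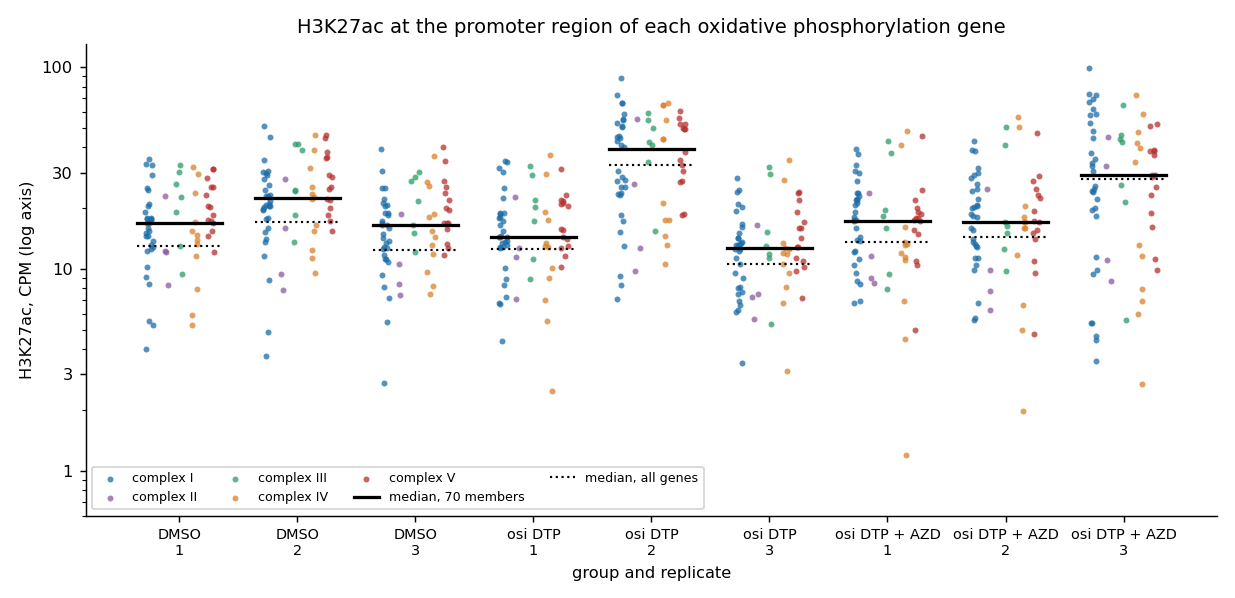
H3K27ac (CPM, log axis) at the strongest promoter region of each of 70 oxidative phosphorylation genes in each of the 9 libraries; points are genes coloured by complex, solid bars the median of the 70 and dotted bars the median of 12295 gene promoters. The solid bar stands at 39.1 CPM in DTP replicate 2 and at 29.2 in DTP + AZD5153 replicate 3, and between 12.6 and 22.4 in the other libraries.

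The excess in these libraries differed with the base composition of the promoter. The 51 member promoters with sequence had a median of 61.0% G and C, against 65.7% in the 6584. Across them, the ratio of DTP replicate 2 to the mean of the other DTP libraries rose with G and C content (Spearman rho 0.713, a description over promoters that share their libraries), from a median of 1.8 for the 22 promoters under 60% to 3.48 for the 8 at 70% or more. In DTP + AZD5153 replicate 3 rho was 0.742, and the corresponding median ratios were 0.943 and 2.79. In that library promoters poor in G and C such as NDUFS4, COX7B and UQCRC2 stood at 0.540, 0.213 and 0.465 of the level in the other replicates. All gene promoters gave 0.533 and 0.538. The part of base composition in any difference between groups was not tested.

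**Figure D2:**
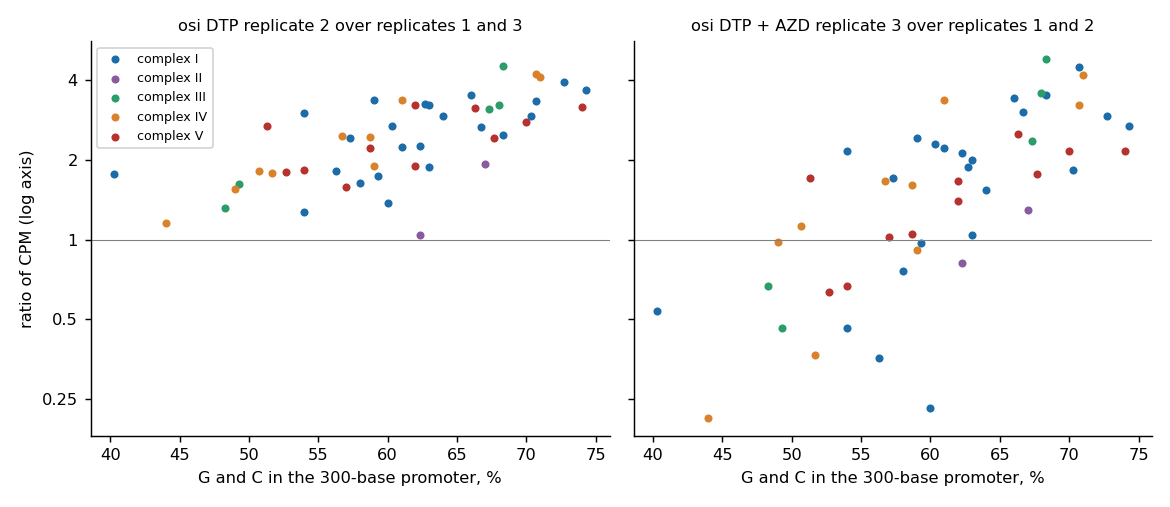
Ratio of CPM (log axis) in DTP replicate 2 over the mean of DTP replicates 1 and 3 (left), and in DTP + AZD5153 replicate 3 over the mean of replicates 1 and 2 (right), against the percentage of G and C in the 300-base promoter, for 51 member genes coloured by complex. Ratios rise from left to right in both panels, with rho of 0.713 and 0.742.

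As a share of all promoter counts, which cancels a gain common to promoters, the members were lower in both treated groups. The 108 promoter regions took 0.546%, 0.546% and 0.533% of promoter counts in the DMSO libraries. They took 0.508%, 0.471% and 0.472% in DTP, and 0.496%, 0.483% and 0.414% in DTP + AZD5153. Neither treated group overlapped DMSO, and this held for the libraries with ordinary promoter shares. By complex, the shares of complexes I, III and V did not overlap DMSO in either treated group, whereas those of complexes II and IV did. For complex I the margin was slight. Its share rounded to 0.226% in both DMSO replicate 3 and DTP replicate 1, and was 0.224% in DTP + AZD5153 replicate 1. How often the share of another set of promoters would not overlap was not tested. For single promoters (1 region per gene), DTP did not overlap DMSO at 4.29% of members and at 14.8% of all genes. For DTP + AZD5153 the figures were 12.9% and 25.7%. ATP synthase showed the widest gap, at 0.140% ± 0.00365 (SD, n = 3) in DMSO, 0.114% ± 0.0038 in DTP and 0.103% ± 0.015 in DTP + AZD5153. Both treated groups were compared with the same DMSO libraries, and base composition moved with library as above.

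**Figure D3:**
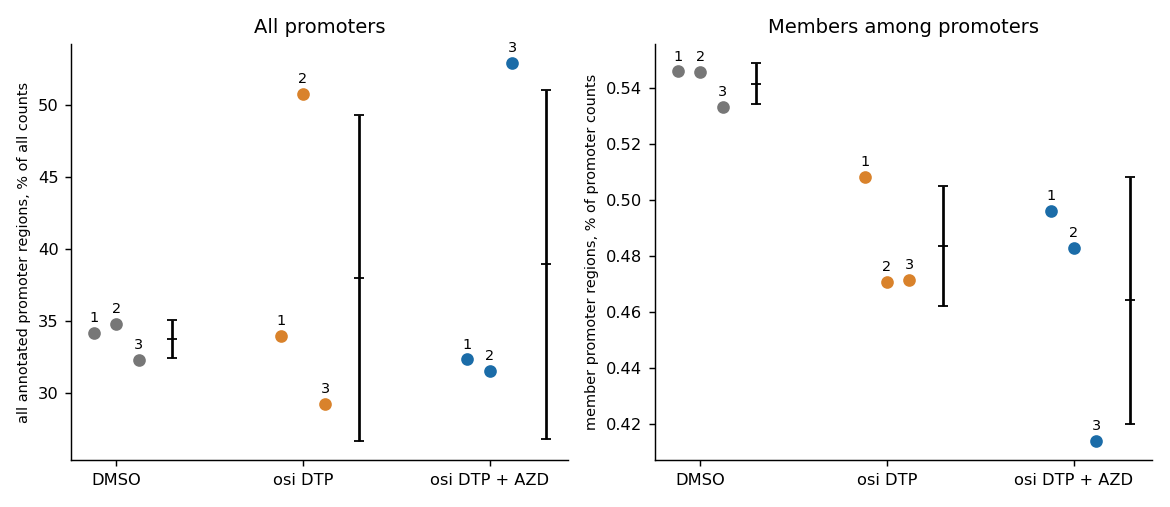
Left, percentage of all counts in annotated promoter regions; right, percentage of those promoter counts in the 108 member promoter regions. Points are libraries marked with their replicate number, bars the mean and SD of each group of 3; the axes do not start at 0. On the right the DMSO libraries lie between 0.533% and 0.546%, above all 6 treated libraries.

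For DTP against DMSO, the comparison asks how acetylation differs in cells that persisted under osimertinib. No promoter region of a subunit passed the test: 0 of 108 had an adjusted p under 0.05 in edgeR's quasi-likelihood test with Benjamini-Hochberg adjustment, 0 had an unadjusted p under 0.05, and DESeq2 called 0. Over all annotated promoter regions 4.63% were called. The member promoters had a median log2 fold change of 0.15 (quartiles -0.11 and 0.44), against 0.35 over all promoter regions and 0.15 over all 157919 regions tested. With 1 region per gene the medians were 0.23 for the members and 0.42 for all genes. Without DTP replicate 2 the member median was -0.25 and that of all promoters -0.15, so the sign of the median rests on that library. The member median minus that of all promoters ran from -0.26 to -0.10 over the alternatives tried. By complex the promoter medians were 0.20 for I, 0.01 for II, 0.07 for III, 0.25 for IV and -0.03 for V, and without DTP replicate 2 they were -0.19, -0.18, -0.20, -0.15 and -0.44.

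For each complex, the promoter with the highest mean over all 9 libraries and those with the highest and the lowest fold change in DTP are described, with the strongest region of each gene standing for it. Complex I contributed 47 promoter regions from 32 genes. NDUFB2-AS1, antisense to the accessory subunit NDUFB2 (chr7:140696687-140697188), had the highest level, at 35.1, 51.2 and 39.3 CPM in DMSO, 31.6, 88.7 and 28.3 in DTP, and 37.2, 43.2 and 73.5 in DTP + AZD5153. Only the libraries rich in promoter counts exceeded the DMSO range. NDUFA10, an accessory subunit of the membrane arm (chr2:240025361-240025862), had the highest fold change of the complex, with 16, 23.3 and 16.5 CPM in DMSO, 18.7, 58.5 and 12.5 in DTP, and 21.8, 24.2 and 62.2 in DTP + AZD5153. Its log2 fold change in DTP was 0.68 ± 0.62 (SE, edgeR adjusted p = 0.544) and -0.19 without DTP replicate 2. NDUFA5, an accessory subunit of the peripheral arm (chr7:123557392-123557893), had the lowest, with 20.5, 34.8 and 22.1 CPM in DMSO, 12.7, 17.3 and 14.3 in DTP, and 17.3, 24.8 and 9.47 in DTP + AZD5153. All DTP libraries lay below all DMSO libraries, and the log2 fold change was -0.81 ± 0.53 (SE, edgeR adjusted p = 0.368).

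Complex II, succinate dehydrogenase, had 5 promoter regions from 4 genes. SDHC, a membrane anchor (chr1:161314327-161314828), was the highest, with 23.0, 27.8 and 18.6 CPM in DMSO, 22.8, 55.5 and 16.5 in DTP, and 23.8, 24.9 and 45.2 in DTP + AZD5153. Among the complex SDHA, the flavoprotein (chr5:218554-219055), had the highest fold change, at 12.1, 7.85 and 8.45 CPM in DMSO, 12.6, 26.3 and 7.55 in DTP, and 8.52, 6.28 and 32.5 in DTP + AZD5153. Its log2 fold change in DTP was 0.71, and 0.15 without DTP replicate 2. SDHD, the other anchor (chr11:112086826-112087327), had the lowest, with 12.3, 15.9 and 10.6 CPM in DMSO, 11.5, 9.74 and 7.25 in DTP, and 11.6, 9.89 and 8.70 in DTP + AZD5153. The SDHD sequence printed above lies outside this region. SDHD was not raised in the promoter-rich libraries, unlike SDHA and SDHC, and its log2 fold change in DTP was -0.45 ± 0.51 (SE, edgeR adjusted p = 0.646).

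In complex III, with 12 promoter regions from 7 genes, UQCRC2, a core protein (chr16:21952912-21953413), had the highest mean over the 9 libraries, although UQCR10 and UQCRC1 were above it in DMSO. It had 26.3, 41.5 and 27.2 CPM in DMSO, 29.2, 49.96 and 31.9 in DTP, and 42.9, 50.6 and 21.4 in DTP + AZD5153. UQCR11, a small accessory subunit (chr19:1604998-1605499), had the highest fold change, with 19.2, 18.6 and 15.0 CPM in DMSO, 20.3, 54.4 and 13 in DTP, and 19.5, 16.4 and 65.1 in DTP + AZD5153. Here again the promoter-rich library of each treated group stood far above the other values, and the log2 fold change in DTP was 0.73, but -0.03 without DTP replicate 2. UQCRB, the ubiquinone-binding subunit, had the lowest fold change, with 13, 24.5 and 16.5 CPM in DMSO, 11.2, 15.4 and 11.4 in DTP, and 16, 15.0 and 5.61 in DTP + AZD5153.

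Complex IV, cytochrome c oxidase, had 19 promoter regions from 12 genes. NDUFA4 (chr7:10940074-10940575) was the highest, with 32.1, 46.0 and 36.1 CPM in DMSO, 36.8, 64.8 and 34.4 in DTP, and 48.0, 56.8 and 58.6 in DTP + AZD5153. Each DTP + AZD5153 library of NDUFA4 lay above all DMSO libraries, although the edgeR adjusted p was 0.492. COX5A, which lies against the catalytic core (chr15:74937633-74938134), had the highest fold change of the complex in DTP, with 17.1, 23.4 and 14.4 CPM in DMSO, 19.1, 66.5 and 11.9 in DTP, and 13.2, 15.9 and 47.7 in DTP + AZD5153. Its log2 fold change was 0.83 ± 0.66 (SE, edgeR adjusted p = 0.480) and -0.18 without DTP replicate 2. COX6B2, the isoform of COX6B known from testis (chr19:55353801-55354302), had the lowest, with 5.26, 11.3 and 9.65 CPM in DMSO, 2.49, 10.6 and 3.12 in DTP, and 1.2, 1.98 and 6.96 in DTP + AZD5153. A peak was called at COX6B2 in 5 of the 9 libraries.

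Complex V, ATP synthase, had 25 promoter regions from 15 genes. ATP5MG, a subunit of the membrane part (chr11:118401211-118401712), had the highest mean over the 9 libraries, although ATP5F1B and ATP5MF-PTCD1 among others were above it in DMSO, with 28.1, 35.6 and 20.01 CPM in DMSO, 31.1, 49.3 and 23.7 in DTP, and 45.3, 46.9 and 29.2 in DTP + AZD5153. ATP5F1C, the gamma subunit of the rotor (chr10:7788145-7788646), had the highest fold change, with 20.5, 22.1 and 15.8 CPM in DMSO, 21.0, 60.7 and 17 in DTP, and 18.7, 22.3 and 52.2 in DTP + AZD5153. Its log2 fold change in DTP was 0.76, and 0.02 without DTP replicate 2. ATP5MC1, a gene for the c subunit of the rotor ring (chr17:48892746-48893247), had 17.5, 24.8 and 16.8 CPM in DMSO, 13, 18.5 and 10.3 in DTP, and 17.4, 14.1 and 16 in DTP + AZD5153, the lowest fold change at the strongest region of a gene in this complex; weaker promoter regions of ATP5MC2 and ATP5MPL were lower still, at log2 fold changes of -0.67 each. The 11 promoters with an NRF1 word, listed above in part, ranged from -0.81 to 0.76 on the log2 scale in DTP with a median of 0.12, against 0.24 for the 40 without.

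Away from promoters, 5 of the 58 member regions were called in DTP against DMSO, 1 higher and 4 lower. Of all regions tested 10.7% were called, and of annotated regions outside promoters 9.35% were called higher and 10.3% lower. The members' counts, 1 and 4 of 58, are thus not above that background. These regions carry a subunit's name because its start was the nearest, which does not show on which gene they act.

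Near NDUFV2, an iron-sulphur subunit of the electron-input module of complex I, a pair of neighbouring intergenic regions fell. At chr18:9049377-9049878, 52752 bp before the gene, the CPM were 6.17, 9.19 and 5.83 in DMSO, 0.765, 0.696 and 0.503 in DTP, and 0.601, 0.233 and 0.387 in DTP + AZD5153. This was a log2 fold change of -3.41 ± 0.63 in DTP (SE, edgeR adjusted p = 0.00464). At chr18:9048826-9049327 the CPM were 8.43, 13.1 and 7.95 in DMSO, 0.860, 1.67 and 0.906 in DTP, and 1.00, 1.40 and 0.580 in DTP + AZD5153. Its log2 fold change in DTP was -3.11 ± 0.60 (SE, edgeR adjusted p = 0.00583), and no treated library reached the lowest DMSO value at either region. The promoter of NDUFV2 was at 7.06 ± 1.76 CPM (SD, n = 3) in DMSO and 7.18 ± 0.439 in DTP.

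A region 4575 bp before UQCRC1, the other core protein of complex III (chr3:48614221-48614722), had 10.3, 19.8 and 15.5 CPM in DMSO, 2.96, 1.53 and 1.31 in DTP, and 1.90, 0.582 and 0.580 in DTP + AZD5153. Its log2 fold change in DTP was -2.96 ± 0.63 (SE, edgeR adjusted p = 0.0088). A region 17472 bp before NDUFB6, an accessory subunit of the membrane arm (chr9:32590656-32591157), had 13.3, 20.03 and 14.4 CPM in DMSO, 3.63, 1.95 and 2.52 in DTP, and 4.31, 1.98 and 0.966 in DTP + AZD5153, a log2 fold change of -2.55 ± 0.61 in DTP (SE, edgeR adjusted p = 0.0146). Its neighbour at chr9:32589382-32589883 was just outside the threshold, with an edgeR adjusted p of 0.0508. UQCRC1 and NDUFB6 were thus called lower at an upstream region while their promoters were not called (edgeR adjusted p = 0.973 and 0.853).

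The region that rose lay 58973 bp before NDUFB4, another accessory subunit of complex I (chr3:120536854-120537355). It had 0.816, 0.310 and 0.402 CPM in DMSO, from 9, 3 and 4 reads, 1.34, 4.45 and 6.65 in DTP, and 5.61, 11.2 and 3.87 in DTP + AZD5153. All DTP libraries lay above DMSO, and the log2 fold change was 2.97 ± 0.73 (SE, edgeR adjusted p = 0.0173). The counted promoter region of NDUFB4, which does not hold the NRF1 word printed above, was at 21.5 CPM in DMSO and 18.1 in DTP.

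The number of calls depended on which libraries were fitted. It was 0 without DMSO replicate 2, 3 without DMSO replicate 3, 2 without DTP replicate 2, 2 without DTP replicate 3, and 13 without DTP + AZD5153 replicate 3, with which the background also rose to 26.8%. With library sizes taken from promoters, 0 were higher and 2 lower.

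**Figure D4:**
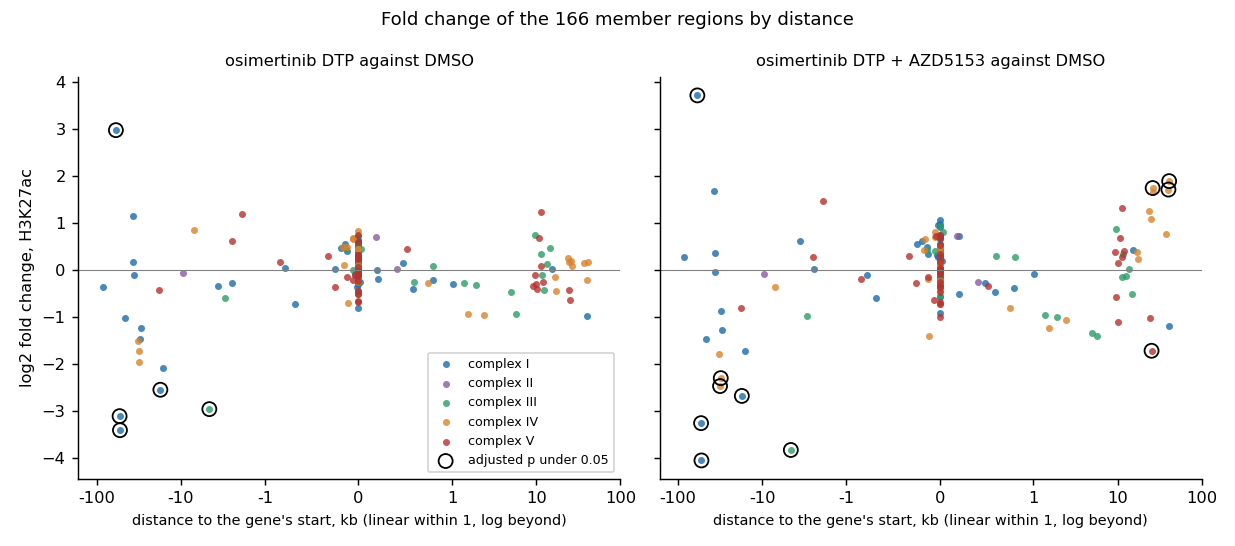
Log2 fold change of the 166 member regions for DTP against DMSO (left) and DTP + AZD5153 against DMSO (right) by distance to the start of the gene (kb, linear within 1 kb and log beyond), coloured by complex; circles mark an adjusted p under 0.05. Regions at the start stay between -0.81 and 0.83 on the left, and all 5 and 11 circles lie away from it.

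The comparison of DTP + AZD5153 with DTP sets 21 days of osimertinib and then 3 days of AZD5153 against 24 days of osimertinib. Whether osimertinib was kept on is not stated, so BET inhibition cannot be told apart here from a shorter osimertinib exposure. No member region was called. The count was 0 of 166 by edgeR's quasi-likelihood test and 0 by DESeq2, with 4 at an unadjusted p under 0.05, and 0.0% of all regions tested and 0.0% of promoter regions were called. The member promoters had a median log2 fold change of 0.02 (quartiles -0.19 and 0.19), beside 0.08 for all promoter regions. By complex the medians ran from -0.14 for IV to 0.10 for I. Single regions ran from -0.84 at COX6A1 to 0.82 at a weaker region of ATP5F1A, whose strongest region was at 0.02. Without DTP replicate 2 the promoter median was 0.44 and without DTP + AZD5153 replicate 3 it was -0.31, so its direction depends on the library left out.

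The 4 smallest unadjusted p all belonged to regions assigned to COX4I2, an isoform of COX4 known from lung and from the response to low oxygen. They lie 26036 to 40885 bp beyond its start and inside BCL2L1, the gene of an inhibitor of apoptosis, in an intron or the 3′ UTR. At chr20:31678031-31678532 the CPM were 2.81, 2.79 and 4.83 in DMSO, 2.77, 1.81 and 4.33 in DTP, and 13.8, 14.1 and 6.18 in DTP + AZD5153, a log2 fold change of 1.93 ± 0.58 over DTP (SE, edgeR unadjusted p = 0.00373). At chr20:31678818-31679319 they were 3.54, 5.27 and 5.43 in DMSO, 3.35, 5.84 and 6.75 in DTP, and 19.5, 22.6 and 10.6 in DTP + AZD5153, a log2 fold change of 1.73 ± 0.55 over DTP (SE, edgeR unadjusted p = 0.00571). In both, every DTP + AZD5153 library lay above every other library. At chr20:31663969-31664470 the DTP + AZD5153 libraries had 9.72, 6.63 and 19.3 CPM, against at most 4.63 in the others, and at chr20:31664557-31665058 they had 6.31, 3.49 and 28.0, against at most 5.33, so that replicate 2 lay within the other groups there.

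For DTP + AZD5153 against DMSO, 11 of the 166 member regions were called, 4 higher and 7 lower, and again 0 of the 108 promoters (0 at an unadjusted p under 0.05, and 0 by DESeq2). The background was 18.1% of all regions tested and 8.5% of promoter regions, and outside promoters 13.7% were called higher and 15.6% lower. The promoter median was 0.17, against 0.42 over all promoter regions. Without DTP + AZD5153 replicate 3 it was -0.07, and the member median minus that of all promoters ran from -0.30 to -0.06 over the alternatives tried. This comparison shares the DMSO libraries with the first, and its called regions included the same 5.

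The log2 fold changes of those 5 were -4.05 ± 0.67 and -3.26 ± 0.61 near NDUFV2, -3.83 ± 0.67 near UQCRC1, -2.68 ± 0.61 near NDUFB6 and 3.71 ± 0.74 near NDUFB4 (SE, edgeR adjusted p from 0.00159 to 0.00758). A pair of intronic regions of KCNG3 assigned to COX7A2L, which joins complexes III and IV into supercomplexes, was also lower. At chr2:42420217-42420718 the CPM were 6.62, 8.57 and 7.44 in DMSO, 3.15, 2.23 and 1.41 in DTP, and 2.00, 1.51 and 0.387 in DTP + AZD5153, with an edgeR adjusted p of 0.0126 (log2 fold change -2.47 ± 0.63, SE). At chr2:42419616-42420117 they were 5.17, 3.82 and 5.73 in DMSO, 2.01, 0.835 and 0.906 in DTP, and 0.902, 0.116 and 2.13 in DTP + AZD5153, with an edgeR adjusted p of 0.0428 (log2 fold change -2.30 ± 0.76, SE). All DTP libraries lay below DMSO at both, although neither was called in that comparison (edgeR adjusted p = 0.0714 and 0.0923).

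The remaining region that fell lies 25267 bp from the start of ATP5MPL, a small membrane subunit of ATP synthase now named ATP5MJ (chr14:103888374-103888875). It had 6.17, 11.4 and 10.9 CPM in DMSO, 4.59, 7.93 and 5.74 in DTP, and 1.8, 2.68 and 4.25 in DTP + AZD5153, an edgeR adjusted p of 0.0428 against DMSO (log2 fold change -1.72 ± 0.57, SE). The 3 further regions that rose were those of COX4I2 at 31663969, 31678031 and 31678818 on chromosome 20, with log2 fold changes of 1.74 ± 0.57, 1.71 ± 0.57 and 1.89 ± 0.55 against DMSO (SE, edgeR adjusted p = 0.0410, 0.0460 and 0.0255). In DTP their log2 fold changes against DMSO were between -0.22 and 0.19.

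**Figure D5:**
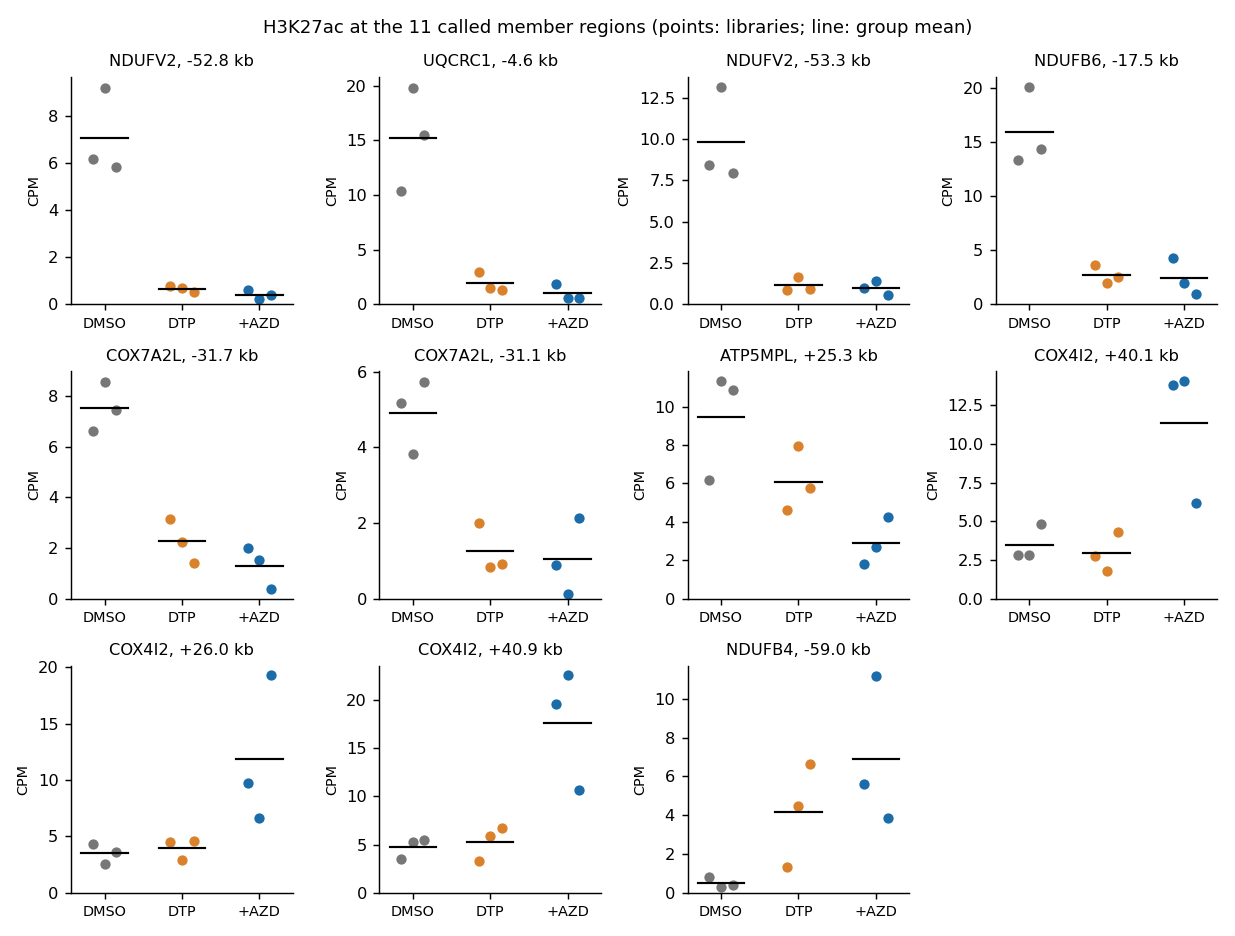
H3K27ac (CPM, axes from 0) at the 11 member regions called in either comparison with DMSO, titled by gene and distance to its start; points are libraries in replicate order and lines group means. The regions of NDUFV2, UQCRC1, NDUFB6 and COX7A2L are low in all 6 treated libraries, whereas those of COX4I2 lie higher in DTP + AZD5153 than in the other groups.

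The count of 11 became 6, 5 and 6 without DMSO replicates 1, 2 and 3, 7 without DTP replicate 1 or 3, 6 without DTP + AZD5153 replicate 1, and 28 without DTP + AZD5153 replicate 3. In the last case 6 of the 28 were promoters, with backgrounds of 35.7% of all regions and 17.8% of promoter regions, and 0.122% of all regions were called against DTP. Library size without TMM gave 2 higher and 9 lower, and promoter library sizes 1 higher and 6 lower, with 1 promoter among the calls in each.

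Leaving out both promoter-rich libraries, an alternative chosen after their promoter shares were seen, brought promoters into the calls, with 2 libraries in each treated group. For DTP against DMSO 17 members were called, 3 of them promoters, all lower (background 26.9% of all regions and 15.2% of promoter regions). They were NDUFA5 at -0.91 ± 0.347, COX6B2 at -1.61 ± 0.482 and a region 679 bp before NDUFS8, an iron-sulphur subunit of complex I, at -0.843 ± 0.306 (log2 fold change, SE). For DTP + AZD5153 against DTP 3 were called, all higher and none a promoter (2.11% and 1.47%), namely the intronic COX4I2 regions, at 2.12 ± 0.458 and 2.03 ± 0.484, and a region 84802 bp before NDUFV2, at 1.22 ± 0.333. For DTP + AZD5153 against DMSO 45 were called, 12 of them promoters, 3 higher and 9 lower (42.6% and 27.4%). The lower promoters included ATP5F1B at -0.904 ± 0.309, CYC1, cytochrome c1 of complex III, at -0.98 ± 0.354, and UQCRC1 at -0.826 ± 0.324. ATP5F1D, the delta subunit of ATP synthase, was lower at both of its regions, at -1.68 ± 0.408 and -1.30 ± 0.47, and ATP5MC3, a gene for the c subunit, at -0.976 ± 0.355. The higher promoter regions were that of ATP5MG, a weaker region 54 bp before COX7A2, and the region in DYRK4 listed under NDUFA9. The strongest promoter region of COX7A2 was at -0.35 ± 0.56 with all 9 libraries (log2 fold change, SE, edgeR adjusted p = 0.72). Over all 9 libraries ATP5F1B had 31.2, 46.0 and 39.9 CPM in DMSO, 23.3, 38.0 and 24.1 in DTP, and 20.1, 19.4 and 18.9 in DTP + AZD5153, with no overlap between the last group and either other. At ATP5F1D, by contrast, DTP + AZD5153 had 5.01, 4.77 and 29.2 CPM against 15.4 to 17.3 in DMSO, so its call turned on replicate 3.

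Some subunits carried no region under their own symbol. Of the canonical subunits of complex I 30 of 37 had one, of II 4 of 4, of III 7 of 9, of IV 10 of 11 and of V 12 of 18. The 30 of complex I include NDUFAB1, whose symbol the choice of members did not take in, so it enters no value of the members. The figures for V count the inhibitory factor ATP5IF1. The region over the start of NDUFB2 was listed under NDUFB2-AS1, that of NDUFC2 under NDUFC2-KCTD14 and that of ATP5MF under ATP5MF-PTCD1, so signal of these pairs cannot be told apart. ATP5MJ and ATP5MK, counted as lacking a region, had promoter regions under their older symbols ATP5MPL and ATP5MD.

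Of 9 isoform genes known for expression restricted to certain tissues or conditions, COX6A2, COX7A1, COX7B2, COX8C, NDUFA4L2 and ATP5MGL had no annotated region, and COX6B2 had the promoter described above. UQCRHL and COX4I2 had no promoter region, but regions elsewhere reached the level of member promoters. The strongest near UQCRHL had means of 17.1, 28.6 and 31.3 CPM in DMSO, DTP and DTP + AZD5153, and the strongest assigned to COX4I2 had 9.61, 11.5 and 23.0.

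Other genes of the pathway were read from lists chosen for this purpose. For the assembly factors, which build the complexes, 40 of 49 genes had a promoter region, and 0 of these were called in DTP or in DTP + AZD5153 at the strongest region, with median log2 fold changes of 0.23 and 0.33 against DMSO. Over all 12295 genes the medians were 0.42 and 0.50, with 280 promoters called higher and 153 lower in DTP and 521 and 237 in DTP + AZD5153. Weaker promoter regions were called, lower at NDUFAF2 in both comparisons and, in DTP + AZD5153, lower at 2 regions of COA1 and higher at 1 of NDUFAF6. Outside promoters, 8 of their 64 regions rose and 5 fell in DTP, and 6 rose and 13 fell in DTP + AZD5153. For these and the next lists, the shares over all annotated regions outside promoters were, as above, 9.35% higher and 10.3% lower in DTP, and 13.7% and 15.6% in DTP + AZD5153; nothing particular to a list is read from its counts. NUBPL supplies iron-sulphur clusters to complex I. Intron-class regions assigned to it rose in DTP from 0.585 to 10.1 and from 0.356 to 5.92 CPM (group means, n = 3). They start at chr14:31504916 and chr14:31505954, at lower coordinates than its strongest promoter region (chr14:31561395-31561896). UQCC1, an assembly factor of complex III, had calls both ways in DTP. The region 1264 bp from its start fell from 23.4 to 5.56 CPM. Intronic regions rose, such as chr20:35340690-35341191 from 2.04 to 15.2 CPM and chr20:35341564-35342065 from 7.99 to 37.5. Of the regulators of mitochondrial biogenesis, 14 had a promoter region with 0 called, and of their 31 other regions 7 rose and 2 fell in DTP, and 8 rose and 2 fell in DTP + AZD5153. Of the 7 that rose in DTP, 5 lie beyond TFAM, the transcription factor of the mitochondrial genome, such as the one 38740 bp from its start, at 1.07 CPM in DMSO, 16.1 in DTP and 26.2 in DTP + AZD5153, while the promoter of TFAM was at 22.5, 18.4 and 20.8. The 2 that fell are intronic to NRF1, at 8.44 and 7.13 CPM in DMSO and 1.11 and 1.01 in DTP, while an intergenic region before NRF1 rose from 1.85 to 8.25 CPM. In the TCA cycle list, with 16 promoters and 0 called, 3 of 36 other regions rose and 6 fell in DTP, and 1 rose and 10 fell in DTP + AZD5153, 5 of these in SUCLG2, a subunit of succinyl-CoA synthetase, and 3 at CS, citrate synthase. As for the members, calls in all 3 lists came from regions away from the strongest promoter region.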

How the data were processed

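H3K27ac ChIP-seq was read from the table of region counts the authors deposited, with no normalization (9 libraries, 169637 regions of 502 bp), and from their annotated table, which assigns 67387 regions to the nearest gene start. The MACS2 peak lists the authors deposited give fold enrichment, a ratio, and p and q values as −log10; they were used only to count peaks. The submitters' processing notes name BWA 0.7.17, MACS2 2.2.6, featureCounts 2.0.0, ChIPseeker 1.29.1 and hg38.

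Counts were tested with edgeR 4.0.16 in R 4.3.3 (filterByExpr with a minimum count of 10, TMM library sizes, quasi-likelihood test, 1 mean per group, Benjamini-Hochberg adjusted p under 0.05 over 157919 regions), after the script was tested on simulated data. DESeq2 1.42.0, other library sizes and left-out libraries were alternatives. CPM were scaled by TMM. Same-numbered DMSO and DTP libraries deviated together (correlations 0.334, 0.355 and 0.324). Differently numbered libraries were not compared in this way, so whether the numbers pair the samples was not settled. No 2 libraries were duplicates. The labels call the replicates biological but do not say whether they were separate cultures, so p-values measure the spread between these libraries, which may be technical.

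Members, lists and tests were chosen with earlier results of these data known. Named are, per complex, the promoter with the highest level and those with the highest and lowest fold change in DTP, all called regions, the 4 smallest p where none was called, and isoform genes; other genes were named after their values were seen.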

Additional observations from a re-analysis of the deposited data

How the results depend on the processing

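The counts of called member regions and the medians of the member promoters both moved with the processing. The medians moved by less than the pooled SD of the library medians (0.59, log2). By group that SD was 0.243 in DMSO, but 0.89 in DTP and 0.441 in DTP + AZD5153, which hold the promoter-rich libraries. The DTP median against DMSO went from 0.15 to -0.28 without both of these. Without DTP + AZD5153 replicate 3, that group's median went from 0.17 to -0.07 against DMSO and from 0.02 to -0.31 against DTP. For DTP against DMSO the 5 calls became 9 with DESeq2, 2 with promoter library sizes, 13 with only both groups' libraries, 3 at an adjusted p under 0.01, and 0 to 13 with 1 library left out. For DTP + AZD5153 against DMSO the 11 calls became 17, 7, 7 and 5 in the same order, and 5 to 28 with 1 library left out. Without both promoter-rich libraries, chosen after seeing the data, there were 17, 3 and 45 calls for DTP against DMSO, DTP + AZD5153 against DTP and DTP + AZD5153 against DMSO. No other setting tried gave a call for DTP + AZD5153 against DTP. Each cause was not tested beyond what the fewer samples or stricter threshold set by construction. Promoter library sizes moved the median of all regions from 0.15 to -0.02 (log2) in DTP and from 0.23 to -0.21 in DTP + AZD5153, both against DMSO.

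With the replicate number as a block, 5, 0 and 11 regions were called, and the promoter medians were 0.12, 0.07 and 0.20 for the 3 comparisons in that order. For DTP + AZD5153 against DMSO the block shared 10 calls with the fit without it, losing the COX4I2 region at 31678031 (edgeR adjusted p = 0.055) and gaining a lower region near UQCR10 (0.0494). The pairing check gave correlations of 0.243, 0.0262 and -0.24 for DTP + AZD5153 with DTP, and of -0.0183, 0.553 and 0.362 with DMSO. These were of mixed sign, and whether the numbers pair those libraries was not settled. At the lowest counts, as near NDUFB4 in DMSO, depth limits the precision of a fold change.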
